A study of Homo sapiens with 24 samples.

Results

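The 10 genes described here belong to the NF-kappa-B pathway, and were found in the table of counts by the identifiers that map to their symbols. They are the subunits RELA, RELB, NFKB1 and NFKB2, the inhibitor NFKBIA, the kinases IKBKB and CHUK, and the induced targets TNFAIP3, BIRC3 and TNF. The table lists 63299 genes, of which 20240 held enough counts to be tested, and all 10 were among those. Whole transcriptome sequencing was performed on A2780 cells, a platinum-sensitive human ovarian cancer cell line, and on the isogenic platinum-resistant A2780cis cells. Cells were harvested 6 h or 12 h after the culture medium had been exchanged for one holding 5-FdU-ECyd at 1 µM or for standard medium, which gave 8 groups of 3 libraries. 5-FdU-ECyd is a duplex-prodrug that joins the antimetabolites 5-FdU and ECyd and is metabolized to compounds that block DNA and RNA synthesis. In maintenance culture, A2780cis cells received cisplatin during a passage at regular intervals and A2780 cells did not, and more A2780cis than A2780 cells were seeded, so these differences and the line cannot be told apart. The paper calls the 3 libraries of a group biological replicates, but neither it nor the labels say whether they came from separate cultures. The p-values measure the spread between libraries, which may not be that between separate cultures. The question was how the transcripts of this pathway differ between the lines under the drug.

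NF-kappa-B factors are dimers of RELA, RELB, REL and the processed products of NFKB1 and NFKB2. In resting cells they are held in the cytoplasm by inhibitors such as NFKBIA (IκBα), and the IκB kinase complex, with the catalytic subunits IKBKB (IKKβ) and CHUK (IKKα), marks these inhibitors for degradation after signals from cytokine receptors or from DNA damage. Several induced targets feed back on the pathway: NFKBIA recaptures the factor, TNFAIP3 (A20) edits ubiquitin chains on upstream signalling proteins, BIRC3 (cIAP2) is a ubiquitin ligase of the TNF receptor complex that restrains cell death, and TNF encodes a cytokine that activates the pathway again.

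The sequence that the factors recognise is called the kappa-B site. It was searched on both strands of the 250 bases before the transcription start in RefSeq (GRCh38.p14), which gave a promoter for 8 of the 10 members, all but RELB and IKBKB. Matches to the kappa-B consensus, a motif of 10 bases, stood in 4 of these 8 promoters, and in 10.0% of 35116 promoters of the same length. A looser pattern of 3 G, any 5 bases and 2 C stood in 7 of the 8 and in 54.4% of all, and 2 of the 4 loose matches of TNFAIP3 overlapped the GC box GGGCGG. The 4 promoters with a consensus match are shown because 3 of them belong to genes whose transcripts rose in A2780 cells at 12 h (NFKBIA, TNFAIP3 and BIRC3) and the fourth to NFKB1, whose transcripts did not. Each is written from 5′ to 3′ on the strand of its gene, ending at the last base before the gene as GENCODE annotates it, and capitals mark the consensus matches.
NFKBIA (chr14:35404750-35404999, minus strand): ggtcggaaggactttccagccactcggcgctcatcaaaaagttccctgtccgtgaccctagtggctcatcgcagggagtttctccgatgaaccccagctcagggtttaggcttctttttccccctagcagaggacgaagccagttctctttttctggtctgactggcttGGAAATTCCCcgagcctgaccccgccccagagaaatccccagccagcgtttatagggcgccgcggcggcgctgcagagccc
TNFAIP3 (chr6:137867009-137867213, plus strand): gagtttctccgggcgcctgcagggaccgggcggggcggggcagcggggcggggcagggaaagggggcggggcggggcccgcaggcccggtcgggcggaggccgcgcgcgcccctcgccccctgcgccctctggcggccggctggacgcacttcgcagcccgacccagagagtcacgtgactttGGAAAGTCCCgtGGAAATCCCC
BIRC3 (chr11:102317234-102317483, plus strand): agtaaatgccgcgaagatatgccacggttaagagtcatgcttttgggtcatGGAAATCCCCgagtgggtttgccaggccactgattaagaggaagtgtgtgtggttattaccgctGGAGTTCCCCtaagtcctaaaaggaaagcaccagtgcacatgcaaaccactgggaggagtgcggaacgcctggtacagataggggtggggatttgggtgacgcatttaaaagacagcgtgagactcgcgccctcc
NFKB1 (chr4:102501109-102501329, plus strand): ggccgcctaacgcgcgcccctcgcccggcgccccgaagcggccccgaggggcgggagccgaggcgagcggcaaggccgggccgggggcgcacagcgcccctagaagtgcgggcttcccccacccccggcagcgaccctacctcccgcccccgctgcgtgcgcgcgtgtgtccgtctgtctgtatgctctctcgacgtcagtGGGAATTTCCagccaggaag
The match of NFKBIA began 81 bases before the RefSeq start, that of NFKB1 49 bases before it, the tandem pair of TNFAIP3 67 and 55 bases before it, and those of BIRC3 199 and 135 bases before it. A match is a description of the letters and not evidence of binding, and no consensus match in the windows of RELA, NFKB2, CHUK and TNF says only that these letters are not in these windows. Transcripts of NFKB2 and TNF rose in A2780 cells at 12 h too, and a link between match and response was not tested.

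Depth ranged from 11077368 to 21901406 counts per library. Levels are given as CPM, counts scaled to the library size after normalization by the trimmed mean of M values (TMM), and differences as log2 fold changes (log2 FC) ± SE from edgeR's quasi-likelihood test, with p-values adjusted over all 20240 genes. A gene was called at an adjusted p of at most 0.05. Gene coordinates are those of GENCODE release 44 on GRCh38. Exons of RELA, CHUK, TNFAIP3 and BIRC3 overlap a gene on the opposite strand over 1.1% to 1.9% of their bases, and the counting was not stated to use strand. Of 9 markers chosen for an ovarian carcinoma line, PAX8, WT1, MUC16, CDH1 and KRT19 stayed at or below 0.146 CPM in every group mean. These were thus absent or near 0. EPCAM was at 0.188 to 1.35 CPM, KRT8 at 0.751 to 5.97 CPM, KRT18 at 1.11 to 26.5 CPM and VIM at 843 to 2617 CPM. The leukocyte markers PTPRC, CD3E, CD14 and MS4A1 were at or below 0.0946 CPM, and the summed level of the 5 leukocyte markers, carried by CD68, ran from 2.86 to 7.50 CPM over the groups. The 3 endothelial markers summed to at most 0.0284 CPM. The 5 fibroblast markers summed to between 66.6 and 163 CPM, with THY1 at 58.7 to 93.5 CPM in both lines, and 4 of the 5 were lower in untreated A2780cis than in untreated A2780 cells at both times.

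At 12 h the induced targets BIRC3 and TNFAIP3 rose in both lines, and by more in A2780 than in A2780cis cells, while TNF rose in A2780 cells and stayed at the floor in A2780cis cells. BIRC3 (ENSG00000023445.13, chr11:102317484-102339403) was at 2.71, 2.95 and 2.00 CPM in untreated A2780 libraries and at 22.7, 18.7 and 22.6 CPM in treated ones. In A2780cis cells it was at 8.57, 7.30 and 6.26 CPM untreated and at 16.1, 14.7 and 12.3 CPM treated. The groups did not overlap in either line, and treated A2780 cells passed the treated A2780cis cells although untreated A2780 cells had the lower level. BIRC3 rose by a log2 FC of 3.06 ± 0.17 in A2780 cells (8.37-fold, edgeR adjusted p = 9.28e-14) and by 0.96 ± 0.15 in A2780cis cells (1.95-fold, edgeR adjusted p = 4.62e-06). The difference between these log2 FC, tested as an interaction, was -2.10 ± 0.23 (edgeR adjusted p = 3.36e-07). As these are bulk libraries, a smaller rise in every cell and a rise in fewer cells cannot be told apart, here and in the results that follow.

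TNFAIP3 (ENSG00000118503.14, chr6:137867214-137883314) rested on few counts but followed the same course. Untreated A2780 libraries of 12 h held 9, 9 and 11 counts and treated ones 68, 79 and 76, which is 0.594, 0.521 and 0.565 CPM against 4.76, 3.86 and 3.69 CPM. In A2780cis cells the untreated libraries were at 0.722, 0.561 and 0.864 CPM and the treated ones at 1.65, 1.26 and 0.935 CPM. The lowest treated A2780 library thus lay above all libraries of A2780cis cells. The log2 FC was 2.85 ± 0.23 in A2780 cells (7.20-fold, edgeR adjusted p = 1.58e-10) and 0.83 ± 0.26 in A2780cis cells (1.78-fold, edgeR adjusted p = 0.00752), and the interaction was -2.02 ± 0.36 (edgeR adjusted p = 0.000315). The call in A2780cis cells was lost without replicate 1 of the treated group (log2 FC 0.59, edgeR adjusted p = 0.112) and with the DESeq2 Wald test (adjusted p = 0.0655), and over all 14 alternatives its adjusted p ran from 0.00226 to 0.112.

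TNF (ENSG00000232810.3, chr6:31575565-31578336) was detected above the floor in A2780 cells of 12 h only. Treated libraries of that group held 30, 30 and 39 counts (2.10, 1.47 and 1.89 CPM), and untreated ones 1, 4 and 2. The log2 FC was 3.66 ± 0.43 with a 95% interval from 2.76 to 4.57 (edgeR adjusted p = 5.60e-07). Its size is uncertain, since the untreated counts lay near the floor. In A2780cis cells no library of any group exceeded 1 count, where 3 counts per library were taken as the floor, so no fold change was given for this line. Treated A2780 cells of 12 h were at least 9.94-fold higher than treated A2780cis cells of 12 h, and at least 7.23-fold higher than treated A2780 cells of 6 h, with the other group set to the floor (edgeR adjusted p = 7.59e-08 for the first difference). Whether the response of TNF differs between the lines could not be tested at this depth, since the floor leaves its fold change in A2780cis cells unknown.

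**Figure D1:**
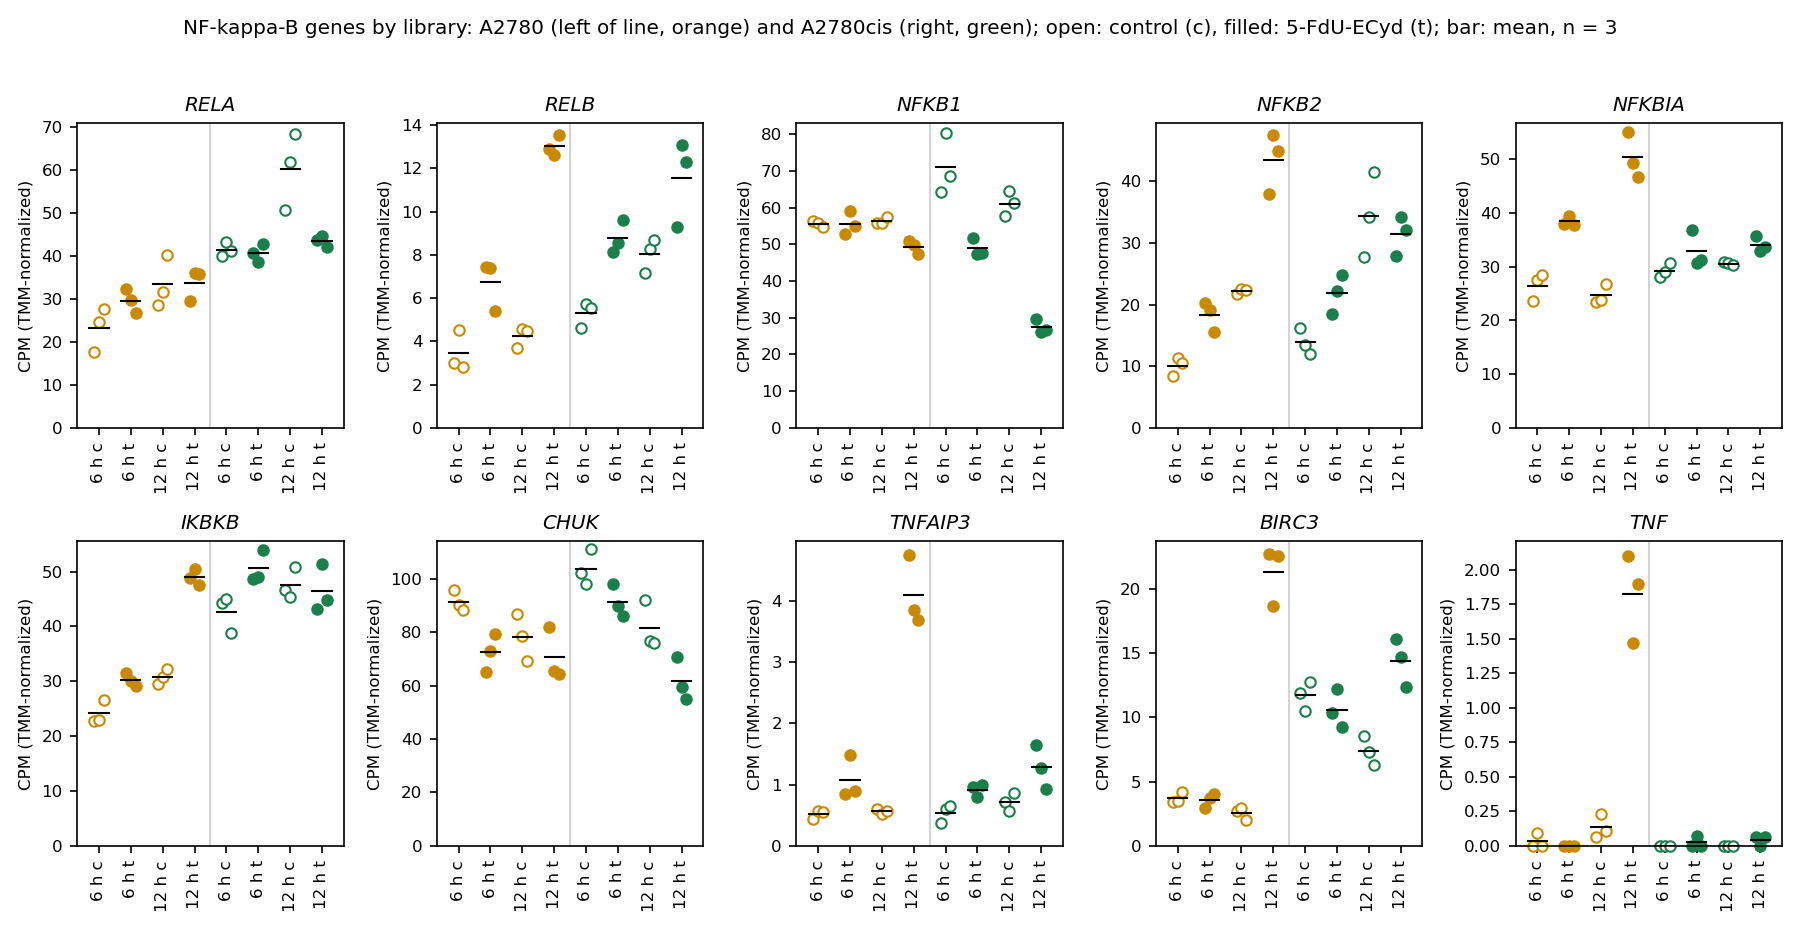
Each panel plots the level of 1 gene (y axis, TMM-normalized CPM from 0) in the 24 libraries, with the 4 groups of A2780 cells left of the line and those of A2780cis cells right of it, c for control and t for 5-FdU-ECyd; points are libraries and bars are means of 3. BIRC3, TNFAIP3 and TNF stand highest in treated A2780 cells of 12 h, and NFKB1 stands lowest in treated A2780cis cells of 12 h.

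NFKBIA (ENSG00000100906.10, chr14:35401079-35404749), which encodes the inhibitor and is itself a classic target of the factor, responded in A2780 cells. At 12 h untreated A2780 libraries were at 23.4, 23.7 and 26.8 CPM and treated ones at 55.1, 49.3 and 46.7 CPM, a log2 FC of 1.03 ± 0.10 (edgeR adjusted p = 2.07e-09). In A2780cis cells the same libraries were at 30.8, 30.7 and 30.2 CPM untreated and at 35.6, 32.9 and 33.7 CPM treated. These groups did not overlap, but the log2 FC of 0.16 ± 0.10, with an interval from -0.04 to 0.36, did not pass the test (edgeR adjusted p = 0.166). The interaction was -0.87 ± 0.14 (edgeR adjusted p = 6.55e-05). Already at 6 h NFKBIA rose in A2780 cells from 23.5, 27.4 and 28.4 CPM to 38.0, 39.5 and 37.8 CPM, and 6 h A2780cis cells showed 28.0, 29.1 and 30.7 CPM against 36.8, 30.7 and 31.3 CPM. The 6 h interaction of -0.37 ± 0.14 did not pass the test (edgeR adjusted p = 0.164). The inhibitor was called in A2780cis cells at both times when libraries were scaled by their size alone, with adjusted p of 0.0291 at 6 h and 0.0132 at 12 h, and its adjusted p over the alternatives ran from 0.0291 to 0.603 and from 0.0132 to 0.615.

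Of the subunit genes, RELB and NFKB2 encode the partners of the alternative pathway, in which the NFKB2 product p100 is processed to p52. RELB (ENSG00000104856.13, chr19:45001461-45038192) was at 3.70, 4.57 and 4.47 CPM in untreated and at 12.9, 12.6 and 13.6 CPM in treated A2780 cells of 12 h. In A2780cis cells it went from 7.18, 8.25 and 8.69 CPM to 9.27, 13.1 and 12.3 CPM. Treated libraries of the lines overlapped and untreated ones did not. The log2 FC was 1.61 ± 0.16 in A2780 (edgeR adjusted p = 5.76e-09) and 0.53 ± 0.15 in A2780cis cells (edgeR adjusted p = 0.00430), with an interaction of -1.08 ± 0.22 (edgeR adjusted p = 0.00101).

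NFKB2 (ENSG00000077150.18, chr10:102394110-102402524) was at 21.8, 22.5 and 22.4 CPM in untreated and at 37.9, 47.5 and 45.0 CPM in treated A2780 cells of 12 h. In A2780cis cells the untreated libraries spread from 27.7 through 34.2 to 41.5 CPM, and the treated ones, at 27.9, 34.2 and 32.2 CPM, lay within that spread. NFKB2 rose in A2780 cells (log2 FC 0.97 ± 0.14, edgeR adjusted p = 3.19e-06), had a log2 FC of -0.13 ± 0.14 with an interval from -0.43 to 0.16 in A2780cis cells, and differed between the lines by -1.10 ± 0.20 (edgeR adjusted p = 0.000384). At 6 h, in contrast, RELB and NFKB2 rose in both lines. The log2 FC of RELB was 0.97 ± 0.19 in A2780 and 0.73 ± 0.17 in A2780cis cells, and that of NFKB2 was 0.86 ± 0.16 and 0.66 ± 0.16. The 6 h interactions were -0.24 ± 0.25 for RELB (interval from -0.76 to 0.29) and -0.20 ± 0.23 for NFKB2 (interval from -0.67 to 0.27), and neither passed the test.

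NFKB1 and RELA, which encode p105/p50 and p65 of the canonical dimer, were not called higher in any treated group. NFKB1 (ENSG00000109320.11, chr4:102501330-102617302) was at 55.7, 55.8 and 57.6 CPM in untreated and at 50.9, 49.8 and 47.4 CPM in treated A2780 cells of 12 h, a log2 FC of -0.19 ± 0.09 (edgeR adjusted p = 0.0624). In A2780cis cells it fell from 57.6, 64.5 and 61.2 CPM to 29.6, 26.0 and 26.7 CPM. The treated A2780cis libraries were the lowest of all 24. NFKB1 fell by a log2 FC of -1.16 ± 0.09 in this line (0.449-fold, edgeR adjusted p = 3.66e-11), and the interaction was -0.96 ± 0.12 (edgeR adjusted p = 4.90e-06). At 6 h it had already fallen in A2780cis cells, from 64.1, 80.3 and 68.6 CPM to 51.8, 47.2 and 47.8 CPM (log2 FC -0.54 ± 0.09, edgeR adjusted p = 4.33e-05). The corresponding A2780 libraries were at 56.4, 55.7 and 54.7 CPM untreated and at 52.9, 59.0 and 54.9 CPM treated. NFKB1 was the 1 member whose response differed between the lines at 6 h (-0.54 ± 0.12, edgeR adjusted p = 0.0133). That call was lost without replicate 2 of treated A2780 cells (adjusted p = 0.0561), without replicate 2 of untreated A2780cis cells (adjusted p = 0.0554), without the filter on low counts (adjusted p = 0.0851) and when the compared libraries were fitted alone (adjusted p = 0.0766), and over all 20 alternatives its adjusted p ran from 0.00211 to 0.0851.

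RELA (ENSG00000173039.18, chr11:65653599-65663090) was at 28.6, 31.5 and 40.1 CPM in untreated and at 29.6, 36.0 and 35.7 CPM in treated A2780 cells of 12 h. In A2780cis cells it fell from 50.7, 61.9 and 68.3 CPM to 43.6, 44.6 and 42.0 CPM (log2 FC -0.47 ± 0.14, edgeR adjusted p = 0.00404). The A2780 groups overlapped and the A2780cis groups did not. The interaction of -0.49 ± 0.19 missed the threshold (edgeR adjusted p = 0.0681), and its adjusted p over the alternatives ran from 0.0213 to 0.178. At 6 h the log2 FC of RELA in A2780 cells was 0.35 ± 0.15 (edgeR adjusted p = 0.0740), and its adjusted p over the alternatives ran from 0.0218 to 0.438.

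Of the kinase genes at 12 h, IKBKB rose in A2780 cells and CHUK fell in A2780cis cells. IKBKB (ENSG00000104365.13) was at 29.5, 30.7 and 32.2 CPM in untreated and at 48.9, 50.5 and 47.6 CPM in treated A2780 cells of 12 h (log2 FC 0.67 ± 0.09, edgeR adjusted p = 1.10e-06). In A2780cis cells it was at 46.6, 45.4 and 50.7 CPM untreated and at 43.3, 51.3 and 44.9 CPM treated, a log2 FC of -0.03 ± 0.09. Treated A2780 cells thus reached the level that A2780cis cells held with and without the drug. The interaction was -0.70 ± 0.13 (edgeR adjusted p = 0.000410). CHUK (ENSG00000213341.10, chr10:100188300-100229596) fell in A2780cis cells from 92.1, 76.8 and 76.1 CPM to 70.8, 59.6 and 55.0 CPM (log2 FC -0.40 ± 0.11, edgeR adjusted p = 0.00313). In A2780 cells it was at 86.9, 78.4 and 69.2 CPM untreated and at 82.0, 65.4 and 64.4 CPM treated, and these groups overlapped. Its interaction of -0.26 ± 0.16, with an interval from -0.58 to 0.07, did not pass the test. At 6 h CHUK fell in A2780 cells (log2 FC -0.34 ± 0.11, edgeR adjusted p = 0.0269) and had a log2 FC of -0.19 ± 0.11 in A2780cis cells (edgeR adjusted p = 0.224), and IKBKB rose in A2780 (0.32 ± 0.10, edgeR adjusted p = 0.0143) and in A2780cis cells (0.25 ± 0.09, edgeR adjusted p = 0.0450). Neither 6 h interaction passed the test, with 0.15 ± 0.16 for CHUK and -0.08 ± 0.14 for IKBKB.

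Read as a group at 12 h, 7 of 10 members were called in A2780 cells, all higher (RELB, NFKB2, NFKBIA, IKBKB, TNFAIP3, BIRC3 and TNF), where 54.8% of all tested genes were called, 28.6% higher and 26.1% lower. In A2780cis cells 6 were called, RELB, TNFAIP3 and BIRC3 higher and RELA, NFKB1 and CHUK lower, where 59.9% of all tested genes were called, 31% higher and 28.9% lower. The share of members called in A2780cis cells was thus close to the background. The median log2 FC of the 9 members other than TNF was 0.97 in A2780 and -0.03 in A2780cis cells, where the medians of all tested genes were 0.02 and 0.04. The response differed between the lines for 7 members, all lower in A2780cis cells (RELB, NFKB1, NFKB2, NFKBIA, IKBKB, TNFAIP3 and BIRC3), against 23.7% of all tested genes called, 14% lower and 9.7% higher. The median interaction of the 9 members was -0.96, with 9 of 9 below 0, and that of all tested genes was -0.04. With libraries scaled by their size alone, 70.7% of all calls in A2780 cells at 12 h were higher in place of 52.3%, and 27% of the calls of the interaction in place of 41%. These 3 comparisons use the same libraries and are not independent of each other. The members were chosen with earlier results of these data known. The paper had already reported higher TNFa, IKK and IkBa transcripts in A2780 cells from these data, so the shares and medians of the members are not independent evidence.

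**Figure D2:**
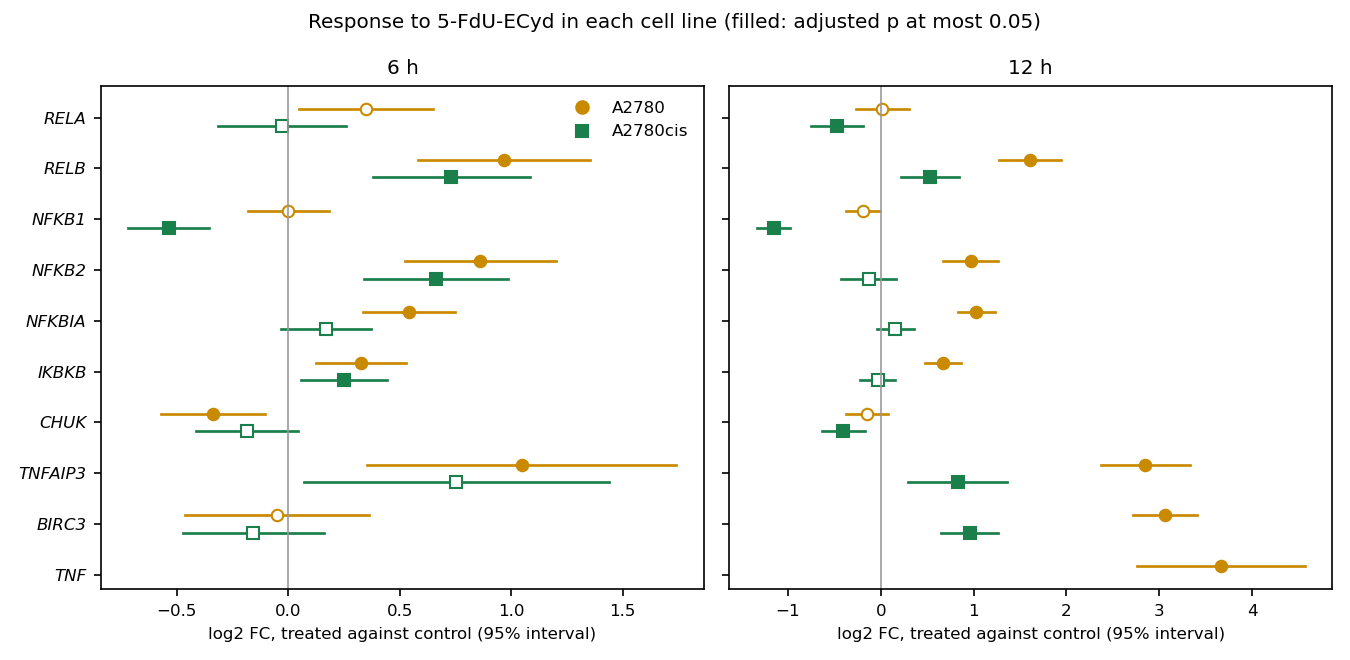
Points give the log2 FC of treated against untreated cells (x axis) of each member in A2780 (orange circles) and A2780cis cells (green squares) at 6 h and 12 h, with 95% intervals, and filled points passed the test. TNF is drawn only for A2780 at 12 h, since the other groups were at the floor; the lines lie close together at 6 h for most members and apart at 12 h, where BIRC3 is at 3.06 and 0.96.

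At 6 h the responses of the lines differed less than at 12 h, with a median interaction of -0.24 for the 9 members other than TNF. That of all tested genes was -0.03. The median log2 FC of the 9 members was 0.35 in A2780 and 0.17 in A2780cis cells, where the medians of all tested genes were 0.04 and 0.0003. In A2780 cells 6 members were called, 5 higher (RELB, NFKB2, NFKBIA, IKBKB and TNFAIP3) and CHUK lower, against 29.4% of all tested genes, 16% higher and 13.4% lower. In A2780cis cells 4 were called, RELB, NFKB2 and IKBKB higher and NFKB1 lower, against 30.7%, where 14.4% were higher and 16.3% lower. BIRC3 was not called in either line, with a mean of 3.53 ± 0.569 CPM (SD, n = 3) in treated against 3.69 ± 0.435 CPM (SD, n = 3) in untreated A2780 libraries, which overlapped. The interaction was called for 1 member, NFKB1, lower in A2780cis cells, against 3.07% of all tested genes, 2.38% lower and 0.692% higher. The count in A2780 cells dropped to 3 without replicate 1 or without replicate 2 of its untreated group, where IKBKB, CHUK and TNFAIP3 were lost, and IKBKB of A2780cis cells was lost in each of the 6 fits that left out a library (adjusted p between 0.0502 and 0.202).

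The growth of the response from 6 h to 12 h was also compared within each line, using the libraries already compared above. In A2780 cells 3 members grew, where 23.7% of all tested genes were called, 10.7% higher and 13% lower: BIRC3 by 3.12 ± 0.26 on the log2 scale (edgeR adjusted p = 2.35e-08), TNFAIP3 by 1.80 ± 0.44 (edgeR adjusted p = 0.00555) and NFKBIA by 0.49 ± 0.14 (edgeR adjusted p = 0.0126). All 3 have a consensus match in the promoters shown above, as has NFKB1, whose response did not grow (-0.19 ± 0.12). NFKB2 and TNF, which also rose in A2780 cells at 12 h, have none in their windows. The growth of NFKB2 was 0.11 ± 0.22, and that of TNF could not be given, since its 6 h counts were at the floor. A link between match and growth was not tested. In A2780cis cells 3 were called, against 24% of all tested genes, 10.3% higher and 13.6% lower. The number of members called was thus close to the background in both lines. BIRC3 grew by 1.12 ± 0.21 (edgeR adjusted p = 0.000544), while the response changed by -0.79 ± 0.21 for NFKB2 (edgeR adjusted p = 0.00809) and by -0.62 ± 0.12 for NFKB1 (edgeR adjusted p = 0.000851). NFKB2 thus no longer showed at 12 h the rise it had at 6 h. Its untreated A2780cis level also differed between the times, and went from 16.3, 13.4 and 11.9 CPM at 6 h to 27.7, 34.2 and 41.5 CPM at 12 h.

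Untreated cells changed between the times in both lines. In A2780 cells RELA, NFKB2 and IKBKB were higher at 12 h than at 6 h, 3 members called against 26.9% of all tested genes, 16.6% higher and 10.3% lower. That number is close to the background. In A2780cis cells 6 were called against 39.9% of all tested genes, 18% higher and 21.9% lower, with RELA, RELB and NFKB2 higher and NFKB1, CHUK and BIRC3 lower. The largest of these changes were those of NFKB2, with a log2 FC of 1.15 ± 0.16 in A2780 (edgeR adjusted p = 0.000161) and of 1.31 ± 0.15 in A2780cis cells (edgeR adjusted p = 1.43e-05). BIRC3 fell in untreated A2780cis cells by 0.67 ± 0.15 on the log2 scale (edgeR adjusted p = 0.00165), from 11.9, 10.5 and 12.8 CPM to 8.57, 7.30 and 6.26 CPM. Without replicate 1 of 6 h or replicate 3 of 12 h, RELA and IKBKB lost their calls in A2780 cells and 1 member was left. In A2780cis cells NFKB1 lost its call in 5 of the 6 fits without a library and CHUK in 3, and the adjusted p of NFKB1 over the alternatives ran from 0.0235 to 0.739.

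Untreated A2780cis cells had higher levels of most members than untreated A2780 cells harvested at the same time. At 6 h, 6 members were higher in untreated A2780cis than in untreated A2780 cells (RELA, RELB, NFKB1, NFKB2, IKBKB and BIRC3) and none was lower, where 47.9% of all tested genes were called, 25% higher and 22.9% lower. At 12 h, RELA, RELB, NFKB2, NFKBIA, IKBKB and BIRC3 were higher and TNF lower, where 52.9% were called, 25.4% higher and 27.5% lower. Among the 9 members other than TNF the line difference of BIRC3 was the largest, with 11.9, 10.5 and 12.8 CPM against 3.37, 3.50 and 4.18 CPM at 6 h (log2 difference 1.68 ± 0.18, 3.20-fold, edgeR adjusted p = 9.27e-09) and a log2 difference of 1.54 ± 0.18 at 12 h. RELA was higher by 0.84 ± 0.14 at 6 h (39.9, 43.3 and 41.1 CPM against 17.6, 24.6 and 27.6 CPM) and by 0.85 ± 0.14 at 12 h. IKBKB was higher by 0.82 ± 0.10 and 0.63 ± 0.09. The call of TNF rests on 1, 4 and 2 counts in untreated A2780 libraries against 0, 0.5 and 0 in A2780cis libraries (edgeR adjusted p = 0.00987), which is too few for a fold. When the untreated 6 h libraries were fitted alone, 3 members were called in place of 6, with RELB, NFKB1 and NFKB2 lost.

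Treated cells were compared across the lines as well. At 6 h RELA, IKBKB, CHUK and BIRC3 were higher in treated A2780cis than in treated A2780 cells, 4 members called against 48.2% of all tested genes, 22.5% higher and 25.7% lower. At 12 h RELA alone was higher (log2 difference 0.36 ± 0.14, edgeR adjusted p = 0.0261), and NFKB1, NFKB2, NFKBIA, TNFAIP3, BIRC3 and TNF were lower, 7 called against 60.6%, with 33.8% of all tested genes lower and 26.8% higher. BIRC3 thus stood 1.57 ± 0.17 log2 units higher in treated A2780cis cells at 6 h and 0.57 ± 0.14 lower at 12 h (edgeR adjusted p = 0.00119). TNFAIP3 was lower at 12 h by 1.66 ± 0.20 (edgeR adjusted p = 1.04e-07). The number of members called was close to the background at both times. The treated libraries enter the treatment comparisons too.

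**Figure D3:**
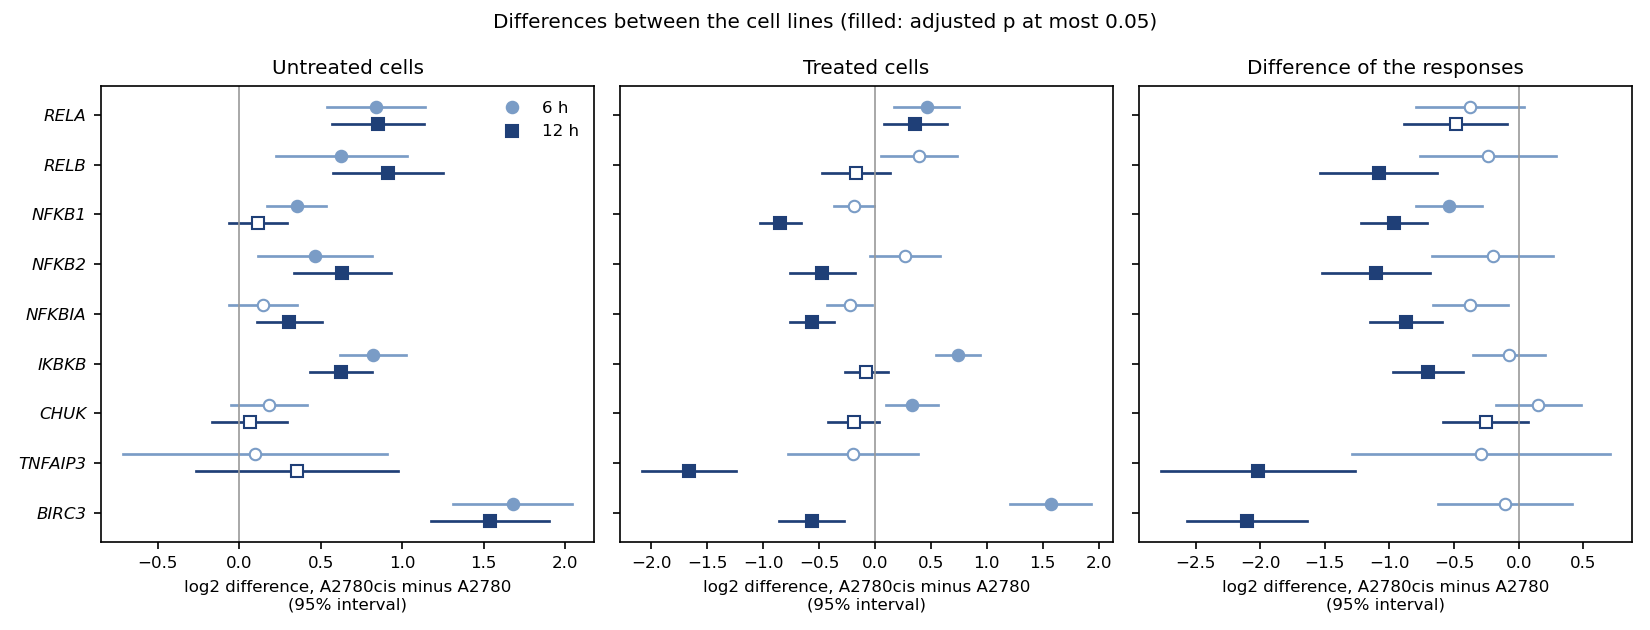
Points give the log2 difference of A2780cis minus A2780 cells (x axis) for each member except TNF in untreated cells, in treated cells and between the responses (interaction), at 6 h (light circles) and 12 h (dark squares) with 95% intervals; filled points passed the test. All 9 members lie above 0 in untreated cells and all 9 lie below 0 in the difference of the 12 h responses.

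The levels of BIRC3, which had the smallest interaction p at 12 h, ranked the 8 groups as follows. Treated A2780 cells of 12 h were highest with 21.3 ± 2.30 CPM (SD, n = 3), followed by treated A2780cis cells of 12 h with 14.4 ± 1.91 CPM. Next came A2780cis cells of 6 h, untreated with 11.7 ± 1.13 CPM and treated with 10.6 ± 1.49 CPM, whose libraries overlapped with each other. The untreated libraries of that pair also overlapped with treated A2780cis cells of 12 h. Untreated A2780cis cells of 12 h had 7.38 ± 1.16 CPM. The A2780 groups of 6 h followed with 3.69 ± 0.435 CPM untreated and 3.53 ± 0.569 CPM treated, also overlapping, and untreated A2780 cells of 12 h were last with 2.55 ± 0.492 CPM, overlapping with the treated 6 h libraries. Of 13090 genes whose mean log2 CPM reached 2 or more, the 3 whose log2 means over the 8 groups followed this profile most closely were FAM161A (Pearson r = 0.974), RNPC3 (r = 0.973) and TMEM263 (r = 0.964), and 51 had an r of at least 0.9. These values rest on 8 group means that share libraries and normalization, and describe likeness only.

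Levels of different genes were compared per kilobase of exon, counting every base in any annotated exon of the gene. This length can exceed that of the transcripts present, and the order depends on it. NFKB1 had 15679 such bases and NFKB2 5583. In untreated A2780 cells of 12 h NFKB1 thus stood below NFKB2 per kilobase, although their mean levels were 56.4 and 22.2 CPM. In untreated A2780 cells of 12 h the order was CHUK with 11.3 CPM per kb, NFKBIA with 7.27, RELA with 6.12, NFKB2 with 3.98, NFKB1 with 3.59 and IKBKB with 2.79, then RELB with 1.42, BIRC3 with 0.341, TNFAIP3 with 0.0869 and TNF with 0.0795 CPM per kb, the last at 1 to 4 counts a library. Treatment for 12 h brought NFKBIA to 14.8 CPM per kb, above CHUK with 10.2, and NFKB2 to 7.78 CPM per kb, above RELA with 6.19. In treated A2780cis cells of 12 h NFKBIA was at 10.0 and CHUK at 8.95 CPM per kb, and NFKB2 with 5.62 stayed below RELA with 7.96 CPM per kb. The members with the largest log2 FC in A2780 cells at 12 h, TNF, BIRC3 and TNFAIP3, had the lowest levels of the 10 in treated cells too, with 1.09, 2.85 and 0.637 CPM per kb.

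The other genes of the pathway were taken from a list of 77 genes, of which 76 matched an identifier and 56 were tested. This list, too, was chosen with earlier results of these data known. At 12 h 25 rose and 11 fell in A2780 cells, and 18 rose and 21 fell in A2780cis cells, which is 64.3% and 69.6% of the tested list against the 54.8% and 59.9% of all genes given above. Over the 52 listed genes that were above the floor in every group the median log2 FC was 0.16 in A2780 and -0.17 in A2780cis cells, and over all 56 tested it was 0.24 and -0.11. The 12 h interaction was called for 25 of the 56, 21 of them lower in A2780cis cells, which is 44.6% against the 23.7% of all genes, and its median over the 52 genes was -0.35 where that of all genes was -0.04. By role, the lower calls fell on 8 of 16 receptors and adaptors, on 5 of 8 negative feedback genes and on 3 of 8 upstream kinases. Among target genes they fell on 1 of 5 survival targets, 0 of 3 cytokine targets and 1 of 7 adhesion and other targets. Of all tested genes 14% were lower. The IκB family had 1 lower call among 5 genes, and the genotoxic route to the kinases 1 among 3. REL, the remaining subunit, was lower by 0.92 ± 0.26 (edgeR adjusted p = 0.0120). REL rose in A2780 cells by 0.69 ± 0.18 (edgeR adjusted p = 0.00240) and had a log2 FC of -0.23 ± 0.18 in A2780cis cells.

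Named by the smallest p, TRAF5, an adaptor of TNF receptor family signalling, rose in A2780 cells from a mean of 59.9 to 80.3 CPM and fell in A2780cis cells from 60.4 to 41.3 CPM (interaction -0.97 ± 0.12, edgeR adjusted p = 5.27e-06). TNFAIP2, a TNF-induced gene, rose in A2780 cells of 12 h from 4.67 to 9.65 CPM and fell in A2780cis cells from 2.50 to 1.21 CPM (interaction -2.09 ± 0.34, edgeR adjusted p = 0.000107). It already differed at 6 h by -1.61 ± 0.37 (edgeR adjusted p = 0.0133). RIPK2, a kinase that links NOD receptors to the pathway, fell in A2780cis cells of 6 h from 265 to 152 CPM (log2 FC -0.81 ± 0.09), and its response differed from that of A2780 cells at 6 h by -0.57 ± 0.13 (edgeR adjusted p = 0.0125). TRAF3, an adaptor that restrains the alternative pathway, fell in A2780cis cells of 6 h by 0.84 ± 0.10 on the log2 scale (edgeR adjusted p = 3.37e-07).

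In the 12 h interaction 1 of 5 survival, 0 of 3 cytokine and 1 of 7 other targets of the list were called lower. In so few genes this is near the 14% of all tested genes called lower. BIRC3 and TNFAIP3 were called lower. LIF, a cytokine of the interleukin 6 family, rose in both lines and at both times, with a log2 FC at 12 h of 2.68 ± 0.13 in A2780 and of 3.28 ± 0.14 in A2780cis cells. GADD45B, a stress-induced survival gene, rose at 12 h by 2.14 ± 0.13 and 1.87 ± 0.12, and PLAU, the urokinase gene, rose at 12 h by 1.97 ± 0.12 in A2780 cells, from a mean of 13.0 to 51.0 CPM, and by 2.52 ± 0.18 in A2780cis cells, from 1.13 to 6.48 CPM. The 12 h interaction of PLAU, 0.55 ± 0.22, did not pass the test (edgeR adjusted p = 0.0706). NFKBIZ, an atypical nuclear IκB, rose more in A2780cis cells, from a mean of 3.99 to 15.5 CPM at 12 h against 27.8 to 49.6 CPM in A2780 cells (interaction 1.12 ± 0.17, edgeR adjusted p = 3.70e-05), and likewise at 6 h (interaction 0.74 ± 0.17, edgeR adjusted p = 0.0155). It was 1 of 4 listed genes with a higher 12 h response in A2780cis cells, together with LIF (0.60), IRF1 (0.66), a transcription factor of interferon signalling, and RBCK1 (0.58), a subunit of the linear ubiquitin ligase. REL, IRF1 and RBCK1 were chosen for naming after their values were seen. Of 15 cytokine target genes 3 were tested, and 8 were at or below 3 counts in every library of all 8 groups, CXCL8, IL6, CCL2 and CXCL1 among them.

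**Figure D4:**
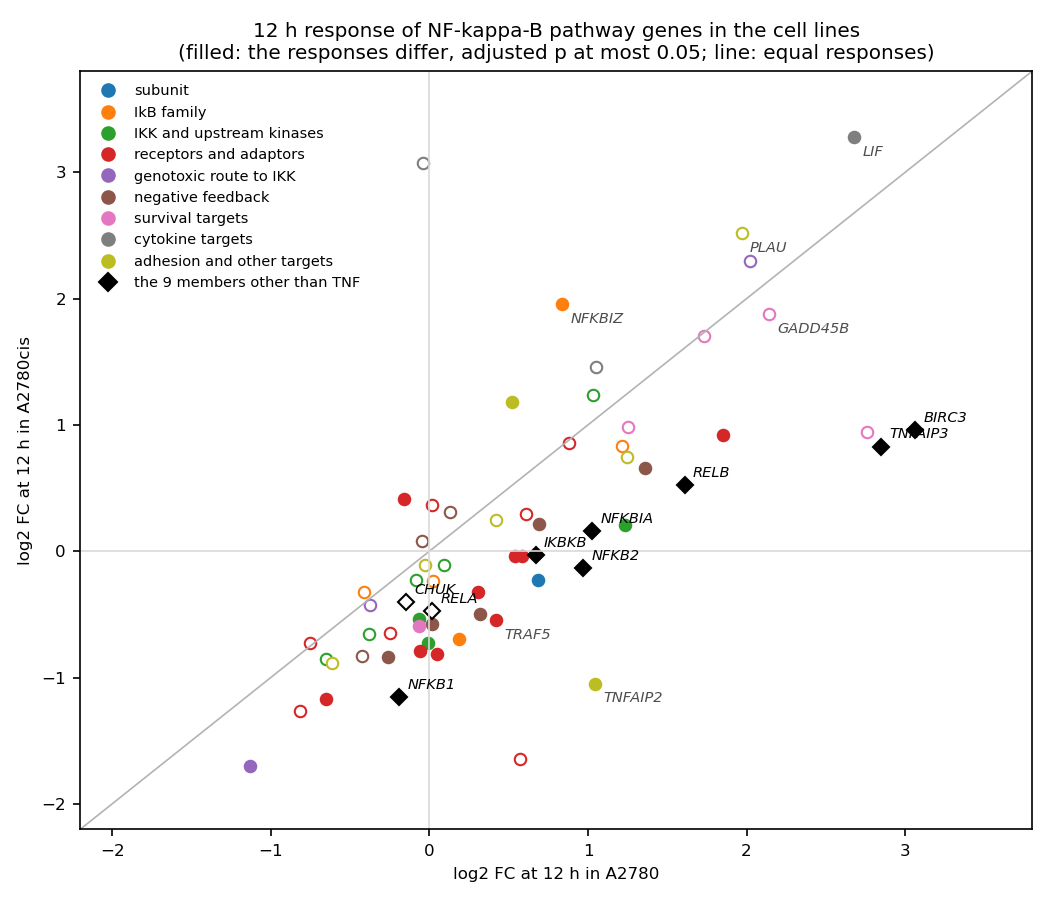
Each point is a gene of the pathway list, coloured by role, or a member other than TNF (black diamonds), with its 12 h log2 FC in A2780 cells on the x axis and in A2780cis cells on the y axis; filled points have responses that differ between the lines, and the line marks equal responses. BIRC3 and TNFAIP3 lie far below the line of equal responses, LIF and NFKBIZ above it.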

How the data were processed

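Whole transcriptome sequencing of 24 libraries in 8 groups of 3 was analysed from a gene table whose values, as deposited by the authors, are expected counts that were not normalized. The authors trimmed the reads with Trimmomatic, aligned them with STAR 2.5.2b to GRCh38.p7 and counted them on exons with featureCounts, with fractions for reads of several alignments, so that 9.5% to 12.8% of a library's values were fractional. The strand setting was not given in the sources used here. Reads were single according to the labels and paired-end according to the paper.

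Groups were taken from the labels. After rounding, edgeR 4.0.16 under R 4.3.3 kept 20240 genes by filterByExpr (at least 10 counts, and 15 in total). TMM factors and a quasi-likelihood model were then used, the model having 1 coefficient per group (16 residual degrees of freedom, common biological coefficient of variation 11.2%). Adjusted p-values are two-sided and Benjamini-Hochberg adjusted over all tested genes, with a threshold of 0.05. DESeq2 1.42.0 was an alternative, as were size factors as in DESeq2, library size alone, no filter, counts not rounded, removal of lncRNA and rRNA genes, the replicate number as a block, the compared samples alone, and each library left out in turn. The comparison of treated cells between the lines was added after seeing the data. Genes were matched to GENCODE release 44 (56948 of 63299). In simulated data, 200 of 18308 genes were changed by a log2 FC of 1. The method called 196 of them in the A2780cis 12 h comparison, with 12 of 18108 unchanged genes called. In the 12 h interaction it called 166, with 13 unchanged genes called. Far more genes were called in the data themselves, 59.9% in that comparison and 23.7% in that interaction. The simulation thus cannot show how the method performs when so many genes change. All changed genes were drawn from those whose mean log2 CPM reached 2 or more, so genes of low level were left out. TNFAIP3, at a mean log2 CPM of 0.496 in the data, and TNF, at -1.22, rest on few counts and lie below that bound. Recovery at their level was thus not simulated. No replicate pair agreed within sampling noise (lowest chi-square per degree of freedom 2.21). Intervals of fold changes cover 95%. Figures were drawn with Python, pandas and matplotlib.

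The members, the pathway list and the markers were chosen with earlier results of these data known. All members were named, and of the pathway list the 3 genes with the smallest p among called genes whose mean log2 CPM was 0 or more in each treatment comparison and interaction, together with the 3 genes most like the member with the smallest 12 h interaction p.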

Additional observations from a re-analysis of the deposited data

Results flagged for a closer look

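The difference between the lines, tested as an interaction, passed the threshold at 12 h for 7 members, each with the lower log2 FC in A2780cis cells: BIRC3 (-2.10), TNFAIP3 (-2.02), NFKB2 (-1.10), RELB (-1.08), NFKB1 (-0.96), NFKBIA (-0.87) and IKBKB (-0.70). At 6 h it passed for NFKB1 (-0.54). Of the listed pathway genes named by the smallest p, it passed at 12 h for TNFAIP2 (-2.09), TRAF5 (-0.97) and NFKBIZ (1.12), and at 6 h for TNFAIP2 (-1.61), RIPK2 (-0.57) and NFKBIZ (0.74).

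The log2 FC at 12 h differed from that at 6 h in A2780 cells for BIRC3 (3.12), TNFAIP3 (1.80) and NFKBIA (0.49), and in A2780cis cells for BIRC3 (1.12), NFKB2 (-0.79) and NFKB1 (-0.62). These values come from edgeR's quasi-likelihood test of the difference itself and share libraries with each other. Groups of 3 libraries are too small for a search for single outlying libraries.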

How the results depend on the processing

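The 7 members whose 12 h response differed between the lines passed the threshold in the same direction in each of the 140 gene values from the 20 alternatives, with a highest adjusted p of 0.00429, and the number of members called there was 7 or 8. With library size as the only scaling, the median of all genes was 0.24 in A2780 and 0.15 in A2780cis cells at 12 h and that of the interaction -0.16, and the share of calls that were higher went from 47% to 61.4% in A2780cis cells at 6 h, from 45.1% to 69.7% for the growth of the A2780 response, and from 61.7% to 71.9% and from 45.2% to 74.6% for untreated A2780 and A2780cis cells over time.

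The counts of members called that moved by over 1.5 times were those of the 6 h interaction (0 without the filter and 0 with the compared samples alone, in place of 1), of untreated cells at 6 h (3 with the compared samples alone, in place of 6) and of the growth of the A2780 response (5 with library size alone and 5 without lncRNA and rRNA genes, in place of 3). The 6 h interaction of listed pathway genes gave 3 calls without the filter, in place of 5. With 1 library left out, the counts of members ran from 3 to 7 for A2780 at 6 h, from 0 to 1 for the 6 h interaction and from 1 to 4 for untreated A2780 cells over time, and those of listed pathway genes from 2 to 5 for the 6 h interaction, from 9 to 14 for the growth of the A2780 response and from 10 to 26 for untreated A2780 cells over time. The low ends were reached without replicate 1 or 2 of untreated A2780 cells of 6 h, without replicate 2 of treated A2780 or of untreated A2780cis cells of 6 h, without replicate 1 of treated A2780 cells of 6 h, without replicate 2 of treated A2780cis cells of 6 h and without replicate 3 of untreated A2780 cells of 12 h. The cause was not tested.

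Of 2031 gene values under the alternatives, 45 changed sign, and none of them was past the threshold before or after. For NFKB1 in A2780 cells of 6 h the log2 FC was -0.0393 with size factors as in DESeq2, -0.000536 with the replicate block, -0.000677 with counts not rounded, -0.0231 without lncRNA and rRNA genes, -0.0107 with the compared samples alone and -0.0381 with the DESeq2 Wald test. With library size alone it was 0.0106 for BIRC3 in A2780 of 6 h, 0.0296 for NFKB1 and 0.0720 for CHUK in A2780 of 12 h, 0.0707 for RELA in A2780cis of 6 h, 0.0795 for IKBKB in A2780cis of 12 h and -0.00368 for TNFAIP3 between untreated cells of 6 h. Without lncRNA and rRNA genes it was 0.0278 for RELA in A2780cis of 6 h, 0.00121 for the 6 h interaction of IKBKB and -0.00255 for TNFAIP3 between untreated cells of 6 h. It was -0.0110 for RELA in A2780 of 12 h without the filter, 0.0110 for RELA in A2780cis of 6 h with the compared samples alone, and -0.0164 and -0.0114 for NFKB1 in untreated A2780 cells over time with size factors as in DESeq2 and with the DESeq2 Wald test.

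With 1 library left out, the log2 FC changed sign at least once for 13 uncalled values. It ran from -0.0452 to 0.0342 for NFKB1 and from -0.159 to 0.0714 for BIRC3 in A2780 of 6 h, from -0.105 to 0.164 for RELA in A2780 of 12 h, from -0.0679 to 0.0101 for RELA in A2780cis of 6 h, and from -0.275 to 0.0149 for NFKB2 and from -0.112 to 0.00933 for IKBKB in A2780cis of 12 h. Between the lines it ran from -0.0764 to 0.307 for TNFAIP3 in untreated cells of 6 h, from -0.0297 to 0.157 for CHUK in untreated cells of 12 h, from -0.326 to 0.0824 for TNFAIP3 in treated cells of 6 h and from -0.230 to 0.000281 for the 6 h interaction of BIRC3. For the growth of the response it ran from -0.00276 to 0.224 for NFKB2 in A2780, and from -0.114 to 0.0650 for NFKBIA and from -0.206 to 0.276 for TNFAIP3 in A2780cis cells.

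The libraries shared only a replicate number: the deviations of same-numbered libraries from their group means correlated between -0.25 and 0.31, above 0.1 in 1 of 12 pairs, and in 2 of the 12 the own number gave the highest correlation. The fit with the replicate number as a block called 8 members in the 12 h interaction (RELA in addition, adjusted p = 0.0445), 7 in A2780 and 6 in A2780cis cells at 12 h. Depth limits TNF and TNFAIP3 most: 3 counts correspond to between 0.141 and 0.301 CPM, and this floor covers counting error only.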
